A study of Mus musculus with 66 samples.

Results

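Pulmonary neuroendocrine cells are rare, innervated cells of the airway lining that sense the air and release peptides and amines. The genes described here are 7 that such cells are known for: Calca, Chga, Chgb, Scg2, Scg5, Uchl1 and Resp18. A gene was represented by the probe set that the platform annotation gives to it alone, and by the brightest such probe set where there were several. By this rule 6 of the 7 genes were measured, each by 1 probe set, out of 18193 genes in all, and Calca was not analysed here. By the annotation Chga lies on chromosome 12, Chgb and Scg5 on chromosome 2, Scg2 and Resp18 on chromosome 1, and Uchl1 on chromosome 5. Lungs of knockout mice (KO, Nrf2-/-) and wild-type mice (WT, Nrf2+/+) were compared at 11 ages. The fetal ages were E13.5 and E15.5, then E17.5 and E18.5 (days of gestation). The ages after birth were PND0 to PND4, sampled each day, and then PND14 and PND42 (days). Each of the 22 groups held 3 arrays, 66 in all. At E13.5 a sample combined 2 to 3 lungs, and at the other ages it was 1 lung. The mice came from timed matings and received no other treatment that the labels give, and no source used here gives strain or sex. The Nfe2l2 gene encodes Nrf2, which activates antioxidant defence genes.

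Pulmonary neuroendocrine cells are the first airway epithelial cells to differentiate in the mouse fetus. Notch signalling limits how many of them form, and they often sit in clusters at airway branch points. Their dense-core granules hold granins, which are acidic proteins that help to pack hormones, together with peptides such as CGRP and the amine serotonin. Many genes that mark them are also active in the neurons of the airway nerves and ganglia, so that in whole lung both cell types can supply the same RNA. In such bulk samples, fewer cells of a type and less RNA per cell cannot be told apart.

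The members were read against their start regions, because the deleted factor binds DNA at a known kind of site, the antioxidant response element. RefSeq start regions of GRCm38.p6, from 250 bases before to 50 bases after the start of transcription, were matched for all 7 genes, Calca included. They were searched on both strands for TGACGTCA (the cAMP response element, which is its own reverse complement), TGACNNNGC (the antioxidant response element core) and CAGCTG (an E-box read the same on both strands). The 3 printed are those of Scg2, the only member with the antioxidant core, of Chgb, which shares the cAMP response element with Scg2, and of Uchl1, the brightest member. Capitals mark the matches, and no match overlapped another. Scg2 lies at chr1:79439977-79440276 on the minus strand, Chgb at chr2:132781392-132781691 on the plus strand, and Uchl1 at chr5:66675871-66676170 on the plus strand.
Scg2: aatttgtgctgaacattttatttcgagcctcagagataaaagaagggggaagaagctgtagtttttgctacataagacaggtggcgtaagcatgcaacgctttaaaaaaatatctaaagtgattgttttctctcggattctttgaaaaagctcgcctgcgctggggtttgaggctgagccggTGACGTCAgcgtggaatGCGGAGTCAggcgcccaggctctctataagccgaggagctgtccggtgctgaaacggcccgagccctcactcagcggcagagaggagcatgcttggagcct
Chgb: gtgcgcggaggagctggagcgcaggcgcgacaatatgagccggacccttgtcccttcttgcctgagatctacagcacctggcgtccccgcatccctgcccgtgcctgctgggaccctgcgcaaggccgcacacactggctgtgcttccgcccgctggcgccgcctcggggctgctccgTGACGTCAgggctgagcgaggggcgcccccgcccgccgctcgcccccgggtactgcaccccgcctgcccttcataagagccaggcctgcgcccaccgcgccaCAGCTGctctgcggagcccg
Uchl1: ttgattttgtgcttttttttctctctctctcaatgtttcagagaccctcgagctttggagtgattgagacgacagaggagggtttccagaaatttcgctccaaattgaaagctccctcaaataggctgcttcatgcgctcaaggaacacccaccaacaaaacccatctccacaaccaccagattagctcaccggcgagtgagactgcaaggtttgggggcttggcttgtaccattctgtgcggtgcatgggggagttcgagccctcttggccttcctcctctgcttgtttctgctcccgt
In Scg2 the cAMP response element began 68 bases before the start and the antioxidant core, on the reverse strand, 51 bases before it. In Chgb the cAMP response element began 72 bases before the start and an E-box at base 31 after it. Uchl1 held none of the 3 motifs in this window. Chga held 2 E-boxes, Resp18 and Calca held 1 each, and Scg5 held none of the motifs. Of all 32851 start regions of this length, 1.79% held the cAMP response element, 12.4% the antioxidant core and 16.3% the E-box. A match is a match of letters and was not tested as a binding site.

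The targeted gene followed the labels. On its brighter probe set, Nfe2l2 ranged between 4.41 and 8.26 on the log2 scale in the 33 KO libraries and between 10.49 and 12.25 in the 33 WT libraries. Its other probe set overlapped, at 4.36 to 10.19 in KO and 4.46 to 9.72 in WT. The arrays of PND1 to PND4 had deposited medians of 40.6 to 81.3, and those of the other 7 ages had medians of 85.2 to 127.4, so all levels and differences below are of quantile-normalised log2(signal + 16) values unless the deposited signal is named. On this scale the fold changes of dim genes are understated. On a scale of lung maturity that ran from 0 at WT E15.5 to 1 at WT PND0, KO E17.5 stood at 0.76 ± 0.04 and WT E17.5 at 0.58 ± 0.06, and KO E18.5 stood at 0.44 ± 0.08 and WT E18.5 at 0.80 ± 0.10 (SD, n = 3). The KO libraries labelled E17.5 and E18.5 thus stood in the reverse of their labelled order. At E13.5 the libraries of KO held Scgb1a1, a club cell gene of the mature airway, at 14.76, 10.50 and 13.87, against 4.43, 7.57 and 5.47 in WT. Results that rest on E13.5, E17.5 or E18.5 are given with that in view. The part of the KO libraries of these ages in them was not tested beyond the values given. The series text calls the 3 samples of a group biological replicates, no litters are named, and p-values measure the spread between these samples.

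Uchl1 was the only member measured well above the dim range. Uchl1 encodes a deubiquitinating enzyme abundant in neurons and neuroendocrine cells, and its deposited signal averaged 204.4 and reached 100 in 36 of 66 libraries. The mean deposited signals were 39.6 for Chga, 45.8 for Chgb, 37.9 for Scg2, 53 for Scg5 and 20.9 for Resp18. These reached 100 in 4, 2, 4, 7 and 1 libraries. Within its array the median library put Uchl1 at percentile 54.3 of all probe sets, Scg5 at 37.4, Chgb at 34.6, Scg2 at 31.3, Chga at 31 and Resp18 at 14.5. Several other genes of these cells were dim as well: the transcription factor Insm1 averaged a deposited signal of 30.5, the granin Scg3 39.3, the vesicle proteins Snap25 35.4 and Syp 64.4, and Neurod1 21.3. Brighter were Grp at 158.7, the transcription factor Hes6 at 728, the vesicle fusion proteins Cplx2 at 496.3 and Stx1a at 306, Ddc, the enzyme that finishes serotonin synthesis, at 749.9, and the adhesion molecule Ncam1 at 341.2.

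Uchl1 was highest at E13.5 in both genotypes and lower after birth. In KO its mean levels were 8.88 ± 0.21 at E13.5, 8.39 ± 0.32 at E15.5, 6.76 ± 0.20 at E17.5, 8.39 ± 0.66 at E18.5 and 7.80 ± 0.32 at PND0 (SD, n = 3). In WT they were 9.22 ± 0.06, 8.76 ± 0.22, 7.75 ± 0.20, 6.72 ± 0.42 and 7.29 ± 0.24 at the same ages. From PND1 to PND42 the group means lay between 6.51 and 7.02 in KO and between 6.42 and 7.18 in WT. Read from high to low in WT, E13.5 and E15.5 did not differ beyond the test (E15.5 minus E13.5, -0.46 ± 0.29, SE, adjusted p = 0.41, limma), nor did PND0 and E18.5 (0.57 ± 0.29, adjusted p = 0.37) or PND42 and PND14 (-0.23 ± 0.29, adjusted p = 0.70). The plot of Uchl1 by library shows the KO group of E18.5 above the KO group of E17.5, while WT goes down across the same ages.

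**Figure D1:**
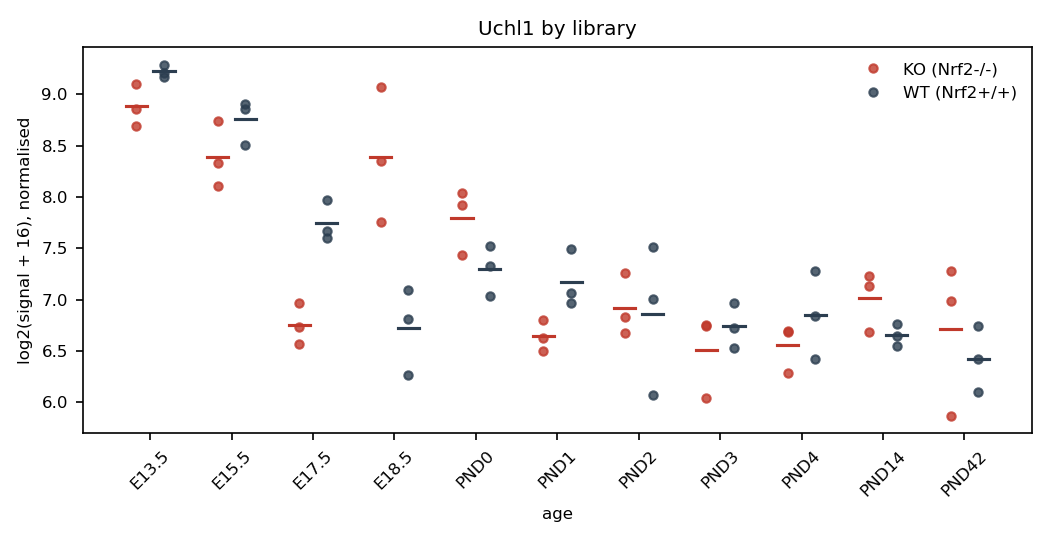
Level of Uchl1 (vertical axis, log2(signal + 16) after normalisation) in each of 66 libraries by age (horizontal axis), KO left of WT at each age; points are libraries and bars are means of 3. The KO libraries of E18.5, at 7.76 to 9.07, lie above the WT libraries of E18.5, at 6.27 to 7.09.

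From E15.5 to E17.5 Uchl1 fell in KO (E17.5 minus E15.5, -1.63 ± 0.29, adjusted p = 1.5e-05) and in WT (-1.01 ± 0.29, adjusted p = 0.0096), where 23.8% of all probe sets were called in KO and 18% in WT. From E17.5 to E18.5 it rose in KO (1.64 ± 0.29, adjusted p = 0.00025, beside 4.77% of all probe sets) and stood at -1.02 ± 0.29 in WT (adjusted p = 0.067). The KO libraries with these labels stood in the reverse of their labelled order on the maturity scale, at 0.76 and 0.44. The difference between these steps was 2.66 ± 0.41 (KO step minus WT step, adjusted p = 1.2e-05), in a comparison that called 7.78% of all probe sets. From PND0 to PND14 it fell in KO (-0.78 ± 0.29, adjusted p = 0.036, beside 30.7% of all probe sets), and this call was lost without replicate 1 (-0.66, adjusted p = 0.13) or replicate 3 (-0.72, adjusted p = 0.11) of KO PND0, and without replicate 2 (-0.84, adjusted p = 0.052) or replicate 3 (-0.62, adjusted p = 0.17) of KO PND14. No other member passed at any of the 7 steps in either genotype.

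At E18.5 the deposited signals of Uchl1 were 659.2, 263.2 and 402.6 in KO, against 133, 83.1 and 158.8 in WT. All KO libraries lay above all WT libraries, at an age when 26% of all probe sets did not overlap. The difference was 1.67 ± 0.29 on the log2 scale (adjusted p = 0.00011), and it was called whichever library was left out, at 1.33 to 1.99. At E17.5 the order was the opposite: the signals were 108.6, 95.0 and 127.8 in KO, against 225.7, 312.5 and 257.6 in WT, and all KO libraries lay below all WT libraries, where 23.5% of all probe sets did not overlap. That difference was -0.99 ± 0.29 (adjusted p = 0.086). Set across the labelled ages, in contrasts chosen after the values were seen, KO E18.5 minus WT E17.5 was 0.64 ± 0.29 (adjusted p = 0.55) and KO E17.5 minus WT E18.5 was 0.03 ± 0.29 (adjusted p = 0.99). These contrasts called 0.249% and 0.81% of all probe sets.

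At E18.5, 1 of 6 members was called, beside 8.75% of all probe sets. All 6 members had a positive difference there, where 49.4% of all probe sets had one, and their median was 0.82 against -0.01 over all probe sets. Replicate 1 of KO E18.5 was the highest library of its group for every member: the deposited signals were 150.5 for Chga, 191.6 for Chgb, 186.9 for Scg2, 232.9 for Scg5, 659.2 for Uchl1 and 111.7 for Resp18. In the other KO libraries of that age Chga stood at 45.3 and 32.0, Chgb at 38.1 and 47.8, and Scg2 at 39.6 and 21.0. Without that library the median of the 6 differences was 0.32 and Uchl1 was still called, beside 3.81% of all probe sets. Of the 5 dim members, 0 passed at E18.5 with that library or without it.

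Some neuron markers were higher with Uchl1 at E18.5. Of 14 measured genes, 4 were higher and 0 lower, with a median difference of 0.81: the neurofilaments Nefl (2.79 ± 0.59, adjusted p = 0.0013) and Nefm (2.02 ± 0.57, adjusted p = 0.018), peripherin Prph (1.80 ± 0.47, adjusted p = 0.0095) and the neuronal tubulin Tubb3 (1.91 ± 0.57, adjusted p = 0.024). Nefl levels were 10.15, 6.91 and 7.34 in KO, against 4.39, 4.30 and 7.35 in WT, so the groups overlapped. Their SDs were 1.76 in KO and 1.73 in WT, while the SE of 0.59 is pooled over all groups. The summed deposited signal of the 14 markers was 7680, 1520 and 2193 in KO E18.5, against 1368, 1295 and 2392 in WT E18.5. It was 1550 to 1936 in KO E17.5 and 1695 to 1963 in WT E17.5. Over all libraries the brightest of the 14 were Stmn2 and Gap43, with mean deposited signals of 1087 and 448.2, so these weigh most in the sum. Without replicate 1 of KO E18.5, 0 of the 14 markers were called and Uchl1 was. The median difference of the markers without that library was 0.38, beside 0.81 with it. That library also had the highest sum of the 8 cartilage markers, 16470, against 2258 and 2272 in the other KO libraries and 1228 to 1510 in WT. It had the highest sum of the 8 heart muscle markers too, 117900, against 23810 and 40130 in the other KO libraries and 7991, 9171 and 82750 in WT. Th, an enzyme that defines sympathetic neurons, was dim, with levels of 6.23, 5.23 and 5.74 in KO E18.5 and 5.72, 5.64 and 5.64 in WT E18.5. The part of nerve, cartilage and heart RNA in the level of Uchl1 was not tested.

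**Figure D2:**
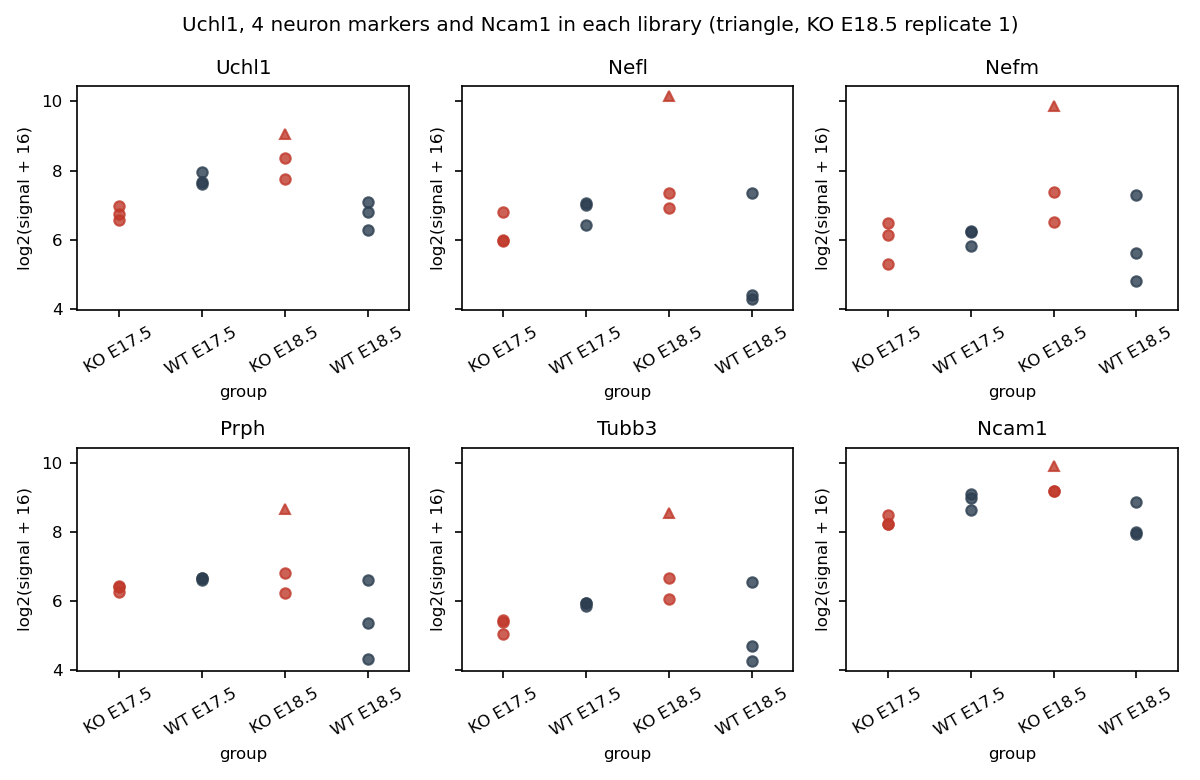
Levels of Uchl1, the neuron markers Nefl, Nefm, Prph and Tubb3, and Ncam1 (vertical axis, log2(signal + 16) after normalisation) in each library of KO E17.5, WT E17.5, KO E18.5 and WT E18.5; the triangle is replicate 1 of KO E18.5. That library is the highest of all 12 in each panel, and without it Nefl overlaps between KO and WT at E18.5 while Uchl1 does not.

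The other lists of these cells went both ways at E18.5, where 8.75% of all probe sets were called. Called were 1 of 8 transcription factors (higher), 2 of 11 granule genes (both higher), 2 of 15 peptides (1 higher, 1 lower), 3 of 9 adhesion genes (1 higher, 2 lower) and 0 of 14 vesicle genes. Ncam1 stood at 9.43 ± 0.41 in KO and 8.27 ± 0.53 in WT (1.16 ± 0.27, SE, adjusted p = 0.0038), and the transcription factor Isl1 at 6.85 ± 0.85 in KO and 5.14 ± 1.49 in WT (1.70 ± 0.54, adjusted p = 0.038). Nnat, an imprinted gene of neurons and endocrine cells, was at 10.86 ± 0.25 in KO and 9.46 ± 0.21 in WT (1.40 ± 0.22, adjusted p = 1.9e-05). In the opposite direction, Bex2 was at 10.10 ± 0.15 in KO and 11.58 ± 0.34 in WT (-1.48 ± 0.22, adjusted p = 6.3e-06), and Calcb, which encodes the beta form of CGRP, at 5.86 ± 0.37 in KO and 6.82 ± 0.18 in WT (-0.96 ± 0.24, adjusted p = 0.0055). Without replicate 1 of KO E18.5, 0 of 8 transcription factors were called, 1 of 11 granule genes was higher, and of 9 adhesion genes 0 were higher and 1 was lower, so Isl1 and Ncam1 lost their calls. At E17.5 Bex2 was higher in KO (1.62 ± 0.22, adjusted p = 2.7e-06), in a comparison that called 0 of 6 members and 1.22% of all probe sets. Its sign thus turned between the ages at which the KO libraries stood in the reverse of their labelled order on the maturity scale.

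Scg2, secretogranin II, a granin that is cut into the neuropeptide secretoneurin, was the only member called at E13.5. Its deposited signals were 28.9, 16.7 and 2.6 in KO, against 117.2, 192.6 and 61.0 in WT. No KO library reached the lowest WT library, and 15.3% of all probe sets did not overlap at that age. The log2 difference was -1.96 ± 0.42 (adjusted p = 0.0051), in a comparison that called 1.54% of all probe sets. It lost the call without replicate 2 of WT (-1.64, adjusted p = 0.077) and without replicate 3 of KO (-1.61, adjusted p = 0.066), and its size ran from -3.08 to -1.07 over the pseudocounts and scalings tried. Of the 14 neuron markers, 0 were called at E13.5, and their summed deposited signal was 4231 to 7753 in KO and 6113 to 6603 in WT. The cartilage markers summed to 23660 in replicate 2 of WT, where Scg2 was highest, and to 3827 and 7817 in the other WT libraries, and their part in the Scg2 level was not tested. Of the other granins at that age, Chgb overlapped between the groups, at 92.7, 39.2 and 100.2 in KO, against 82.0, 93.5 and 81.8 in WT. On normalised levels all KO libraries of Chga also lay below all WT libraries, though both edges rounded to 6.37. That difference was -0.46 ± 0.59 (adjusted p = 0.84, limma). The KO libraries of Uchl1 lay below as well (-0.34 ± 0.29, adjusted p = 0.71), while Scg5 and Resp18 overlapped.

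The difference of Scg2 between genotypes varied with age (adjusted p = 0.0016, F test in limma), as did that of Uchl1 (adjusted p = 0.00021). These were 2 of 6 members, beside 28.3% of all probe sets. Without E17.5 and E18.5 the Uchl1 test gave an adjusted p of 0.28, and without E13.5 the Scg2 test gave 0.047. At the other ages Scg2 differences ran from -1.03 at PND3 to 0.86 at E18.5, none of them called. At PND3 the deposited Scg2 signals were 3.0, 12.0 and 3.3 in KO, against 16.7, 34.2 and 27.9 in WT, with no overlap between the groups, as for 27.5% of all probe sets at that age (-1.03 ± 0.42, adjusted p = 0.12). At PND2 they were 32.7, 16.4 and 28.4 in KO, against 13.9, 15.1 and 15.4 in WT, with the KO libraries above, where 20.2% of all probe sets did not overlap (0.59 ± 0.42, adjusted p = 0.47). At PND1 they were 19.0, 1.9 and 11.8 in KO, against 27.8, 20.8 and 24.8 in WT, with the KO libraries below, where 19.7% of all probe sets did not overlap (-0.89 ± 0.42, adjusted p = 0.31).

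**Figure D3:**
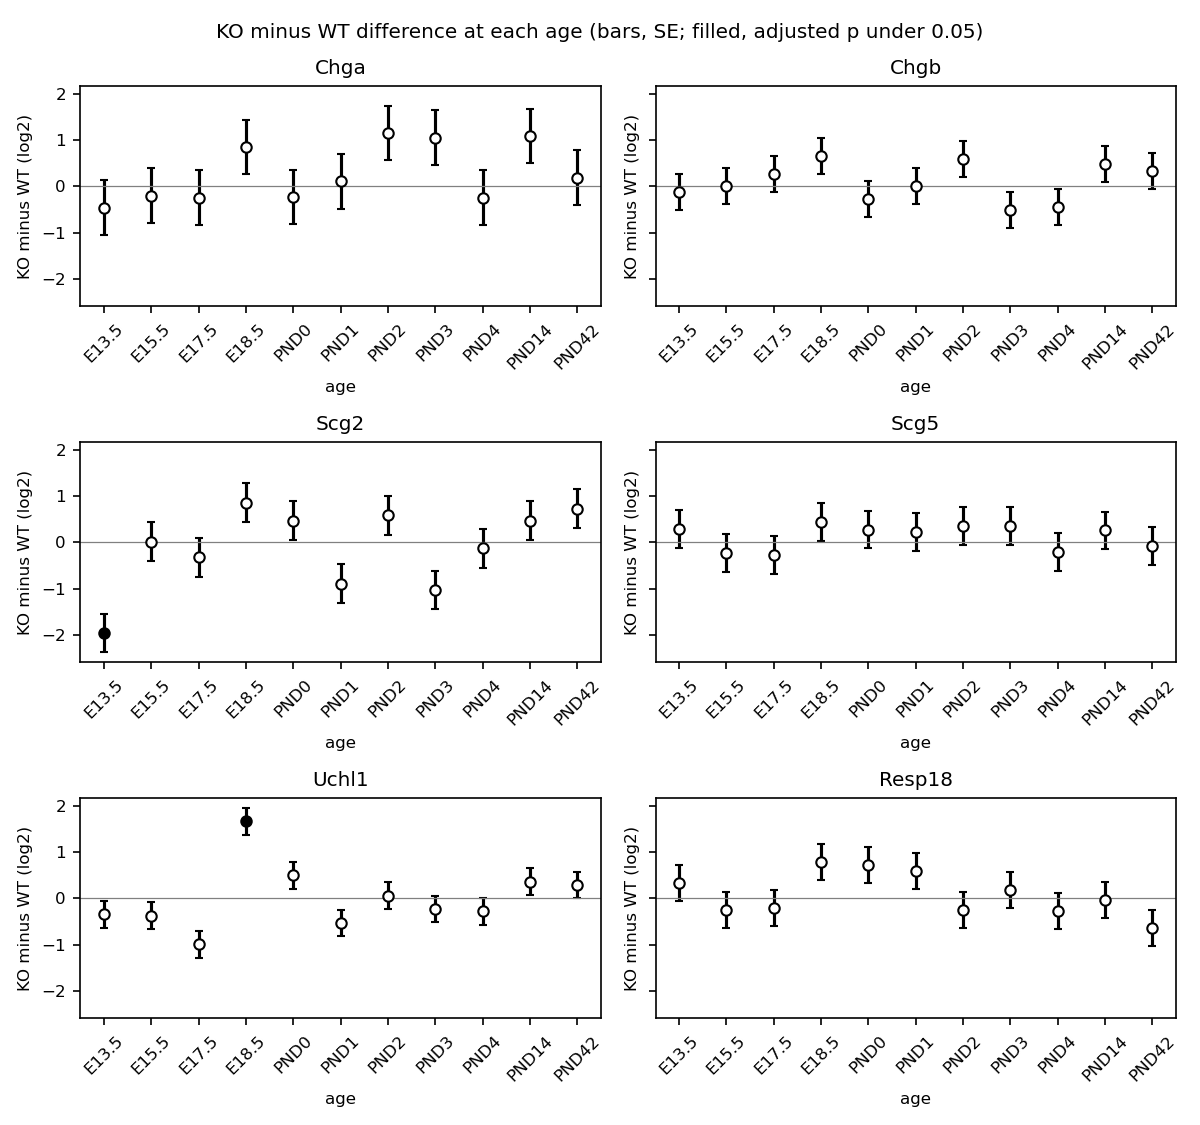
KO minus WT difference of each measured member (vertical axis, log2) at the 11 ages (horizontal axis); bars are SE from the fit over all groups and filled points have an adjusted p under 0.05. Only Scg2 at E13.5 (-1.96) and Uchl1 at E18.5 (1.67) are filled.

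Averaged over the ages, 0 of 6 members were called, in a comparison that called 10.6% of all probe sets (limma). None had an unadjusted p under 0.05 either, where 23.2% of all probe sets did. The average differences were 0.28 ± 0.18 for Chga, 0.09 ± 0.12 for Chgb, -0.11 ± 0.13 for Scg2, 0.13 ± 0.12 for Scg5, 0.01 ± 0.09 for Uchl1 and 0.09 ± 0.12 for Resp18 (SE, n = 33 libraries of each genotype, adjusted p = 0.36 to 0.96). The 95% interval ran from -0.08 to 0.64 for Chga and from -0.16 to 0.19 for Uchl1. Of the 66 pairs of a member and an age, 2 were called, Scg2 at E13.5 and Uchl1 at E18.5, while the share of all probe sets called ran from 0.127% to 10.7% over the ages. At PND0, 0 of 6 were called beside 10.7% of all probe sets, and Resp18 stood at 6.14 ± 0.18 in KO and 5.41 ± 0.79 in WT (0.73 ± 0.39, adjusted p = 0.27).

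Chga and Chgb, the chromogranins that form granules, gave no call between genotypes at any age. Chga was highest at E13.5 in WT, with deposited signals of 47.6, 56.1 and 72.8 in KO, against 113.4, 98.0 and 72.5 in WT. Later its highest signals came from single libraries: 150.5 in replicate 1 of KO E18.5, 135.2 in replicate 3 of KO PND2 and 175.5 in replicate 2 of KO PND3. The libraries beside them held 25.3 and 4.3 at PND2 and 5.9 and 3.7 at PND3, so the SD of the KO group was 1.67 at PND2 and 2.17 at PND3 on the log2 scale. Pth, the parathyroid hormone gene, was highest in the same libraries: its deposited signal was 14.6, 3.6 and 1106.4 in KO PND2 and 18.6, 1502.7 and 114.1 in KO PND3, against 1.2 to 16.5 in WT of both ages. The 5 measured thyroid and parathyroid markers summed to 61.85, 96.16 and 1209 (low to high) in KO PND2 and to 125.9, 195 and 1559 in KO PND3, against 86.45 to 111.9 in WT PND2 and 89.44 to 164.7 in WT PND3. At E13.5, where Chga was highest in WT, Pth stood at 156.6, 956 and 1306.1 in KO, against 2444.9, 843.5 and 768.4 in WT. In replicate 1 of KO E18.5 Pth stood at 101.1, and the marker sum was 121.4 to 259.7 in KO E18.5 and 194.6 to 577.8 in WT E18.5. Parathyroid cells are known to make Chga, and the part of their RNA in its level was not tested. The average difference of Chga was 0.20 without replicate 3 of KO PND2 and 0.17 without replicate 2 of KO PND3, beside 0.28 with all libraries, none of them called. At PND14 all 3 KO libraries were above the WT libraries, at 47.6, 63.8 and 91.6, against 21.5, 42.1 and 10.3, where 15.1% of all probe sets did not overlap (1.09 ± 0.59, adjusted p = 0.26). That SE is pooled over all groups, so the wide KO groups of PND2 and PND3 enter it. The SDs at PND14 itself were 0.36 in KO and 0.54 in WT. Chgb was also highest at E13.5 in WT, with a mean level of 6.42 ± 0.57 in KO and 6.53 ± 0.06 in WT, and its lowest WT group was PND2 at 4.82 ± 0.69.

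Scg5 encodes a chaperone of a prohormone convertase, and Resp18 a protein of the secretory pathway of endocrine cells. Scg5 was highest at E13.5, with deposited signals of 122.8, 97.1 and 141.6 in KO, against 55.3, 148.5 and 107.1 in WT, and the groups overlapped. In KO E17.5 it stood at 28.8, 22.1 and 19.6, against 19.7, 45.5 and 53.9 in WT. In KO E18.5 it spread from 8.4 to 232.9 across the 3 libraries. Resp18 ran the other way early on: its signals were 14.2, 1.4 and 11.1 in KO and 1.9, 3.7 and 3.1 in WT at E13.5, and 80.4, 55.2 and 69.8 in KO and 8.7, 43.7 and 67.5 in WT at PND0. At PND4 its signals were 1.6, 1.1 and 0.9 in KO and 6.1, 1.5 and 4.2 in WT.

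**Figure D4:**
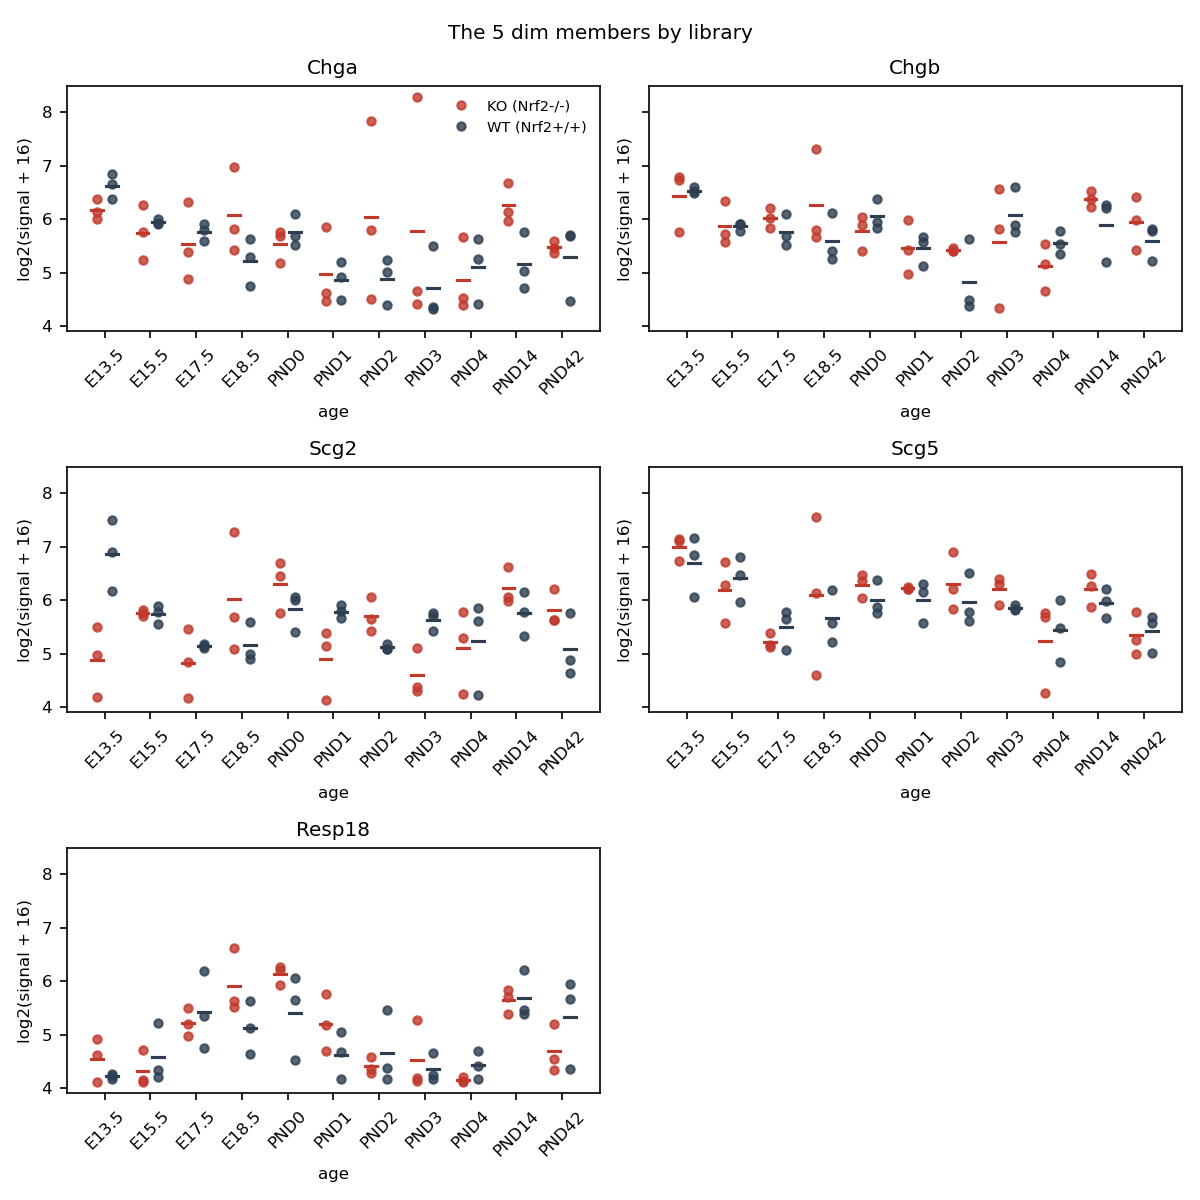
Levels of the 5 dim members (vertical axis, log2(signal + 16) after normalisation) in each library by age (horizontal axis), KO left of WT; points are libraries and bars are means of 3. Single KO libraries at E18.5, PND2 and PND3 stand far above the rest of their groups for Chga (at PND2 and PND3 the libraries where Pth is also highest), and Scg2 is separated at E13.5.

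With age, 5 of 6 members varied in KO and 4 of 6 in WT, beside 70.6% and 65.2% of all probe sets. In KO these were Chgb (adjusted p = 0.036), Scg2 (0.00038), Scg5 (0.0026), Uchl1 (1.6e-12) and Resp18 (9.8e-06). In WT they were Chgb (adjusted p = 0.027), Scg2 (0.0064), Uchl1 (4.4e-13) and Resp18 (0.0031), while Chga gave 0.10 and Scg5 0.11. In WT, Chga passed in 2 fits that left out a library (adjusted p down to 0.012) and in 2 other settings (down to 0.002). Scg5 passed there in 2 such fits (down to 0.028) and 3 other settings (down to 0.013). In KO, Chga passed in 1 such fit (0.022) and 1 other setting (0.042). Within PND1 to PND4 alone 0 members varied in either genotype. The tests over all ages cross from these arrays to those of the other ages, and there age and array set cannot be told apart. The Scg2 call in WT rested on E13.5: without that age its adjusted p was 0.36, and without replicate 2 of WT E13.5 it was 0.087. The Chgb call in WT was lost without any 1 of the 3 libraries of E13.5 or without replicate 2 or 3 of PND2 (adjusted p = 0.051 to 0.13), and in KO without any 1 of 7 libraries (adjusted p = 0.051 to 0.10).

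Set end to end, in contrasts added after the values were seen, the members ran mostly downward. From E13.5 to PND42 in WT, Uchl1 fell by 2.80 ± 0.29 (adjusted p = 9.3e-12), Scg2 by 1.76 ± 0.42 (0.00039), Scg5 by 1.27 ± 0.41 (0.0097) and Chgb by 0.94 ± 0.39 (0.048), and Resp18 rose by 1.11 ± 0.39 (0.017). These were 5 of 6 members, beside 42.3% of all probe sets, and Chga stood at -1.35 ± 0.59 (adjusted p = 0.062). Leaving out single libraries removed calls: Chgb lost its call without any 1 of the 6 WT libraries of these ages or without replicate 3 of KO PND42, Scg5 without replicate 2 of WT E13.5 or replicate 1 of WT PND42, and Resp18 without replicate 2 or 3 of WT PND42. Uchl1 and Scg2 kept theirs. In KO, Uchl1 fell by 2.17 ± 0.29 (adjusted p = 1.1e-08) and Scg5 by 1.65 ± 0.41 (0.00073), 2 of 6 members beside 43.4% of all probe sets, and Scg2 stood at 0.94 ± 0.42 (adjusted p = 0.064), called only without replicate 1 of KO E13.5 (1.24, adjusted p = 0.026). The change of Scg2 differed between genotypes by 2.70 ± 0.59 (KO change minus WT change, adjusted p = 0.0023), the only member of 6 to do so, beside 4.39% of all probe sets. It shares the E13.5 libraries with the difference at that age.

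Over the same span in WT, where 42.3% of all probe sets were called, most called genes of the nerve and neuroendocrine lists were lower at PND42, and the share called was near that of all probe sets for several lists. Of 14 neuron markers, 8 fell and 1 rose (median -1.84), such as Nefm (-5.24 ± 0.57) and Nefl (-4.96 ± 0.59), while Stmn2 rose (1.75 ± 0.25). Of 14 vesicle release and amine genes, 9 fell and 1 rose (median -1), among them Slc18a2, which loads amines into vesicles (-1.91 ± 0.25), and the vesicle protein Sv2a (-2.28 ± 0.38). Of 8 measured transcription factors of these cells, 4 fell (median -0.88), with Isl1 at -5.13 ± 0.54. Of 11 granule processing genes, 4 fell and 1 rose (median -0.28), with Scg3, a granin, at -1.58 ± 0.43, and Pam, which amidates peptides, at 1.02 ± 0.33. Of 15 peptides, 4 fell and 0 rose (median -0.72). The median over all probe sets was -0.05. Of 8 cartilage markers, 7 fell (median -2.99).

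Among other peptides, Grp, gastrin-releasing peptide of the same airway cells, stood at 6.01 in KO and 6.43 in WT at E13.5, at 8.15 in KO and 8.14 in WT at PND1, and at 6.62 in KO and 6.60 in WT at PND42 (group means). It varied with age in KO (adjusted p = 1.4e-08) and in WT (2.1e-05). PND1 is of the array set of PND1 to PND4, so age and array set cannot be told apart in this course. Nmb, neuromedin B, was 9.15 ± 0.22 in KO and 7.68 ± 0.07 in WT at PND0 (1.48 ± 0.22, adjusted p = 2.3e-06), and it was the only 1 of 15 peptides called at that age, beside 10.7% of all probe sets. Averaged over the ages, where 10.6% of all probe sets were called, 0 of 15 peptides were called. Of 8 receptor genes 2 were higher in KO in that average: Calcrl, the receptor of CGRP and adrenomedullin (0.22 ± 0.06, adjusted p = 0.017), and its partner Ramp2 (0.23 ± 0.05, adjusted p = 0.0031). Ramp1, on the same list, was not among these 2. Calcrl was higher in KO at E13.5 (10.19 ± 0.56 in KO and 8.74 ± 0.41 in WT, adjusted p = 2.2e-05) and at E17.5 (0.94 ± 0.21, adjusted p = 0.0079) and lower at E18.5 (-0.98 ± 0.21, adjusted p = 0.0013). Its difference varied with age (adjusted p = 3.3e-07, F test in limma), so the average mixes both signs. At these ages the KO libraries stood apart in Scgb1a1 or in maturity order. In WT Calcrl rose by 4.66 ± 0.21 from E13.5 to PND42, and Ramp2 by 2.45 ± 0.18. Of 12 Notch genes, read in RNA of whole lung, 3 were higher in KO on average, beside the same 10.6%: the ligands Jag1 (0.30 ± 0.05, adjusted p = 1.5e-05), Dll4 (0.23 ± 0.07, adjusted p = 0.021) and Jag2 (0.20 ± 0.07, adjusted p = 0.04).

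**Figure D5:**
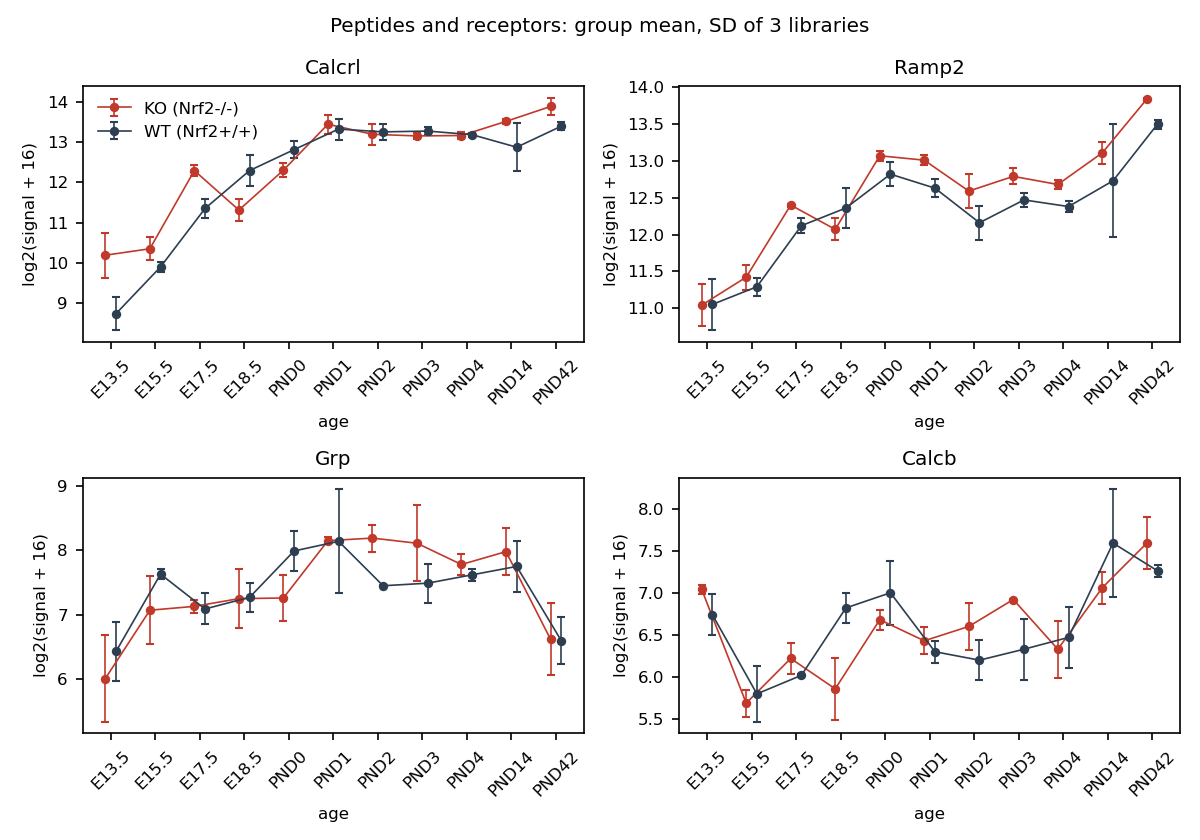
Group means of the receptor genes Calcrl and Ramp2 and the peptide genes Grp and Calcb (vertical axis, log2(signal + 16) after normalisation) by age (horizontal axis) in KO and WT; bars are the SD of 3 libraries. At E18.5 Calcrl is at 11.31 in KO and 12.29 in WT.

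Among themselves the members were loosely alike over the 22 group means: Pearson's r was 0.69 for Chga with Chgb and for Chga with Uchl1, and 0.67 for Scg5 with Uchl1, while Resp18 gave -0.07 to 0.22 with the others. Of the 11636 genes with a mean deposited signal of 100 or more, those whose group means were most like the mean of the 6 members were Zdbf2, Taf5l and Tefm (r = 0.86), Isl1 and Mn1 (0.85), Stmn3 (0.84), and Thg1l and Zfp771 (0.82). The 8 most like Uchl1 alone, a search chosen after the values were seen, were Timm10 and Mybbp1a (0.94), Col9a3, Tarbp2, Nefl, Pabpc4 and Zfp783 (0.93) and Pdgfc (0.92). Among dimmer neuron markers outside that search, Elavl4 gave 0.94 and Tubb3 0.90, and Nefm, a brighter one, gave 0.91. The neuron markers other than these and Nefl ran from -0.65 for Stmn2 to 0.87 for Hand2, with Dbh at 0.02 and Gap43 at 0.2. The cartilage markers ran from 0.46 for Cytl1 to 0.88 for Col9a1. These values are descriptions over 22 groups that share ages and array sets.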

How the data were processed

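RNA from whole lungs was hybridised to 66 Affymetrix arrays of 1 colour. The deposited values are linear intensities per probe set. The authors used GCOS, per the submitters' processing notes, and its version is not given in the sources used here. Of the arrays, the 42 arrays of 7 ages share a trimmed mean of 500 (2% trimmed at each end), and the 24 of PND1 to PND4 do not. The number of arrays limits the precision. The 45101 probe sets were quantile-normalised, 64 controls were dropped, and log2(signal + 16) was fitted in limma 3.58.1 (R 4.3.3) with 22 group means and a trended prior variance. P-values were adjusted by Benjamini-Hochberg over 45037 probe sets, with calls at 0.05. Of these probe sets 34945 had 1 symbol, 932 several and 9160 none.

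The text names all measured members, up to 4 genes a list and comparison by smallest adjusted p, markers that define a cell type, the 8 genes most like the members' mean, and Nfe2l2. A search for genes like Calca could not be made and Uchl1 was used in its place. The members and lists were chosen with earlier results of these data known. Scripts were tested on simulated data. Alternatives were other scalings, pseudocounts, a brightness filter, variance models, age subsets, a replicate block and leaving out each library. A second probe set per member could not be tried, since each had 1.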

Additional observations from a re-analysis of the deposited data

Results flagged for a closer look

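The difference between KO and WT changed with age for Scg2 (adjusted p = 0.0016, limma F test) and for Uchl1 (adjusted p = 0.00021). The Uchl1 step from E17.5 to E18.5 differed between genotypes by 2.66 (KO step minus WT step, log2), with the KO libraries of E18.5 above and those of E17.5 below their WT counterparts. On the maturity scale the KO libraries of these ages stood in the reverse of their labelled order, at 0.76 for E17.5 and 0.44 for E18.5. Leaving out single libraries cannot test that order. Without E17.5 and E18.5 the Uchl1 F test gave no call. The change of Scg2 from E13.5 to PND42 differed between genotypes by 2.70 (KO change minus WT change, log2). The Uchl1 step difference was called whichever library was left out, at 2.32 to 2.98 (adjusted p at most 0.00023, limma). That of Scg2 stayed called without each single library of E13.5 or PND42, at 2.35 to 3.04 (adjusted p at most 0.016). Why single libraries stood apart was not tested.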

How the results depend on the processing

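Averaged over ages, 0 members were called in each of the 13 other settings and 66 fits that left out a library. Restricting to probe sets with a mean signal of 100 or more left 1 member whose difference depended on age (2 in the fit as reported), 1 that changed with age in KO (5) and 1 in WT (4), since only Uchl1 is that bright. Within PND1 to PND4 these 3 counts were 0. Without E17.5 and E18.5, 1 difference depended on age, and without E13.5, 2 members changed with age in WT. Steps called in WT (1 as reported) were 2 with a trimmed mean of 500, deposited values, pseudocount 64 or the brightness filter and 4 with array weights. Steps called in KO (3) were 5 with pseudocount 1 and 7 with array weights. Steps that differed between genotypes (1) were 2 with the array median subtracted, a trimmed mean of 500, deposited values, pseudocount 64, the brightness filter or array weights. The causes were not tested. Leaving out 1 library gave 1 to 3 called pairs of a member and an age, 2 to 5 members changing with age in WT, 1 to 2 steps in WT, 2 to 6 steps in KO and 1 to 2 steps that differed.

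Same-numbered samples did not pair: over 33 pairs the correlation of deviations ran from -0.18 to 0.21, with 1 over 0.1. With a replicate block 2 steps were called in WT and 2 differed between genotypes. Signs turned only in averages without a call: Chgb in PND1 to PND4 (-0.08), Scg2 in the 7 other ages (0.04) and without E13.5 (0.08), and Uchl1 with a trimmed mean of 500 (-0.03), deposited values (-0.06), array weights (-0.01), PND1 to PND4 (-0.25), without E17.5 and E18.5 (-0.06) and without single libraries (-0.02 to 0.05). Dim signals limit 5 of the 6 members.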
